A study of Mus musculus with 12 samples.

Results

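The genes described here handle heme breakdown and iron in mouse glioma stem cells, GSC-H, exposed to the nitroimidazole doranidazole. They are 10 genes named by symbol, Hmox1, Blvrb, Trf, Tfrc, Steap3, Slc11a2, Fth1, Ftl1, Slc40a1 and Ireb2, out of 19505 genes that the array's probe sets name. Each of the 10 was measured by 1 probe set of 22206, so all 10 could be followed and none had a second probe set to set beside it. The cells are Ink4a/Arf-null neural stem cells that overexpress H-Rasv12, and all 4 groups share that genotype. According to the methods they were recovered from a late-stage intracranial tumor, so the results describe 1 engineered line.

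Cells were kept for 24 h in serum-free medium with 3 mM doranidazole under 1% O2 (Hx D), with PBS under 1% O2 (Hx P), with 3 mM doranidazole under 21% O2 (Nx D) or with PBS under 21% O2 (Nx P). Each group had 3 arrays, which the labels call biological replicates, so 12 Clariom S Mouse arrays were compared. Signals are given on the log2 scale, on which a difference of 1 is a doubling, and fold changes are compared between genes but signal levels are not. A rank or percentile on the array only says where in the range of the array a signal lies.

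Heme oxygenase-1, encoded by Hmox1, opens the heme ring and releases ferrous iron, carbon monoxide and biliverdin, which is then reduced to bilirubin. Most cells take up iron bound to transferrin (Trf) through the transferrin receptor (Tfrc). In the endosome the ferrireductase STEAP3 reduces that iron and the transporter DMT1 (Slc11a2) moves it to the cytosol. Iron that is not used is stored in ferritin, built of heavy (Fth1) and light (Ftl1) subunits, or leaves the cell through ferroportin (Slc40a1). Iron regulatory protein 2 (Ireb2) binds iron-responsive elements in several of these mRNAs when iron is scarce. Ferrous iron also feeds lipid peroxidation, which is why these genes are followed in work on ferroptosis.

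The stem cell marker Nes averaged 13.8 ± 0.21 in Hx D cells, 13.5 ± 0.30 in Hx P cells, 13.2 ± 0.45 in Nx D cells and 12.8 ± 1.18 in Nx P cells (log2 signal, SD, n = 3 each). Sox2 was lower in Hx D cells, at 10.9 ± 0.74, against 14.4 ± 0.27 in Hx P cells. Of the 5 stem cell markers 3 fell with doranidazole in hypoxia, Sox2 by 3.50, Msi1 by 1.44 and Olig2 by 2.08, and Nes and Prom1 did not pass. Under 1% O2 without drug, 5 of 6 hypoxia response genes (Car9, Vegfa, Egln3, Ankrd37, Adm, Bnip3) rose, and 5 of the 6 were lower in Hx D than in Hx P cells. All 6 were higher in Hx D than in Nx D cells. Over all probe sets 1.46% rose under 1% O2 without drug and 15.1% fell with doranidazole in hypoxia. Between Hx D and Nx D cells 13.5% were higher. These arrays hold bulk RNA, so a smaller number of cells that express a gene and less of its RNA per cell cannot be told apart. Array medians lay between 4.65 and 4.88, and the highest medians were those of Hx D cells. Hx D arrays also had a narrower spread, with lower quartiles of 3.27 to 3.45 and upper quartiles of 8.60 to 9.02, beside 3.07 to 3.18 and 9.09 to 9.27 on the other arrays, and the lowest correlations within a group (r = 0.983 to 0.986). The part of this spread in the changes of Hx D cells was not tested.

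Under hypoxic conditions doranidazole raised 6 of the 10 genes and lowered 1. Those that rose were the 2 heme breakdown genes among the 10 (Hmox1, Blvrb), the receptor Tfrc, the reductase Steap3 and both ferritin subunits (Fth1, Ftl1). The gene that fell was Trf. Over all probe sets, 12.6% rose and 15.1% fell in the same comparison (limma, Benjamini-Hochberg adjusted p under 0.05). The median change of the 10 genes was 1.11 on the log2 scale, beside 0.09 over all probe sets, and their median absolute change was 1.86, beside 0.39. All 3 Hx D arrays lay above all 3 Hx P arrays for those 6 genes, as they did for 20.7% of all probe sets, and below them for Trf, as for 18.1%.

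Under normoxic conditions fewer of them passed. Hmox1 was the only one of the 10 to pass the threshold with all arrays and the settings used throughout. That made 1 gene higher and 0 lower, where 1.29% of all probe sets rose and 0.293% fell. Ftl1 was just short of it (adjusted p = 0.051) and passed in several alternatives, in 1 of them without Hmox1. A further 5 genes had an unadjusted p under the same threshold, so 6 of the 10 did. Of those 6, Ireb2 had the largest p (0.0304, limma), which ranked 2201 among 22206 probe sets. Steap3, at 0.058, ranked 3085, so the number of probe sets under that unadjusted threshold lay between these ranks. For 7 genes (Hmox1, Blvrb, Tfrc, Steap3, Fth1, Ftl1, Ireb2) all 3 Nx D arrays lay above all 3 Nx P arrays, as they did for 11.3% of all probe sets. Normoxia arrays with the same replicate number deviated together, and with that number as a block 5 genes passed, Hmox1, Blvrb, Ftl1, Steap3 and Tfrc, all higher, where 4.17% of all probe sets rose and 3.1% fell in the blocked fit. The pairing was read from these same arrays and no label gives it, so every call with the block, here and below, depends on that pairing being right.

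**Figure D1:**
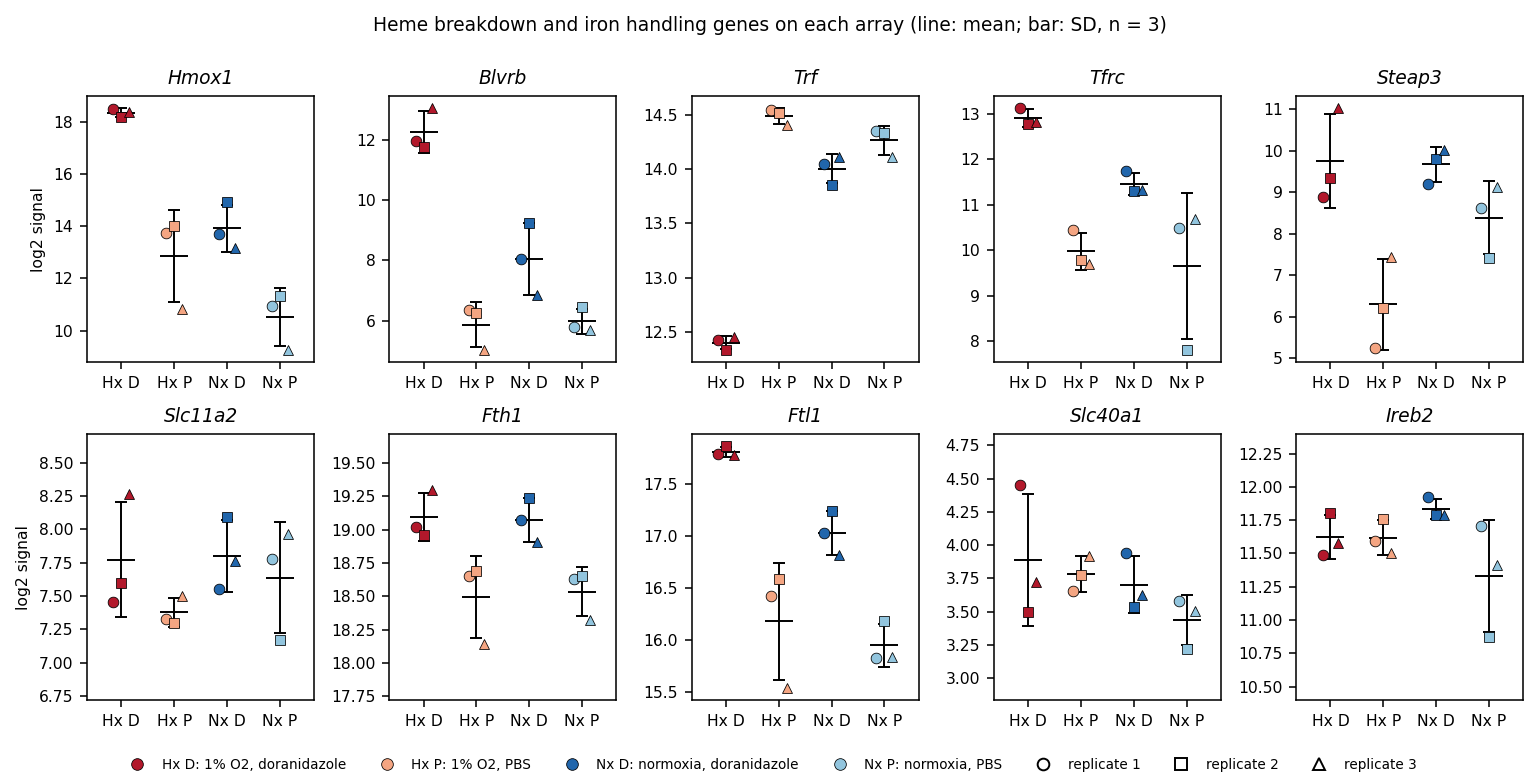
Log2 signal (vertical axis, a range of its own for each gene) of the 10 genes on each of the 12 arrays, by group, with doranidazole left of PBS and 1% O2 left of normoxia. Symbols mark the replicates, horizontal lines the group means and bars the SD (n = 3). Hx D arrays stand above all others for Hmox1, Blvrb, Tfrc and Ftl1 and below all others for Trf.

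Hmox1 carried the highest signal of its 4 groups in Hx D cells. Its log2 signals were 18.50, 18.16 and 18.39 in Hx D cells, against 13.75, 14.02 and 10.84 in Hx P cells. In normoxia they were 13.69, 14.92 and 13.16 in Nx D cells, against 10.94, 11.33 and 9.24 in Nx P cells. The Hx D arrays lay close together and far above every other array, and replicate 3 was the lowest of its group in Hx P, Nx D and Nx P cells. Hmox1 rose 44.6-fold in hypoxia (5.48 ± 0.75 on the log2 scale, SE, limma adjusted p = 0.000143) and 10.7-fold in normoxia (3.42 ± 0.75, adjusted p = 0.0432). Replicate 3 of Hx P set much of the hypoxic value, which was 22.1-fold without that array (adjusted p = 0.000115). The normoxic call was lost without any 1 of the 6 normoxia arrays (adjusted p between 0.0604 and 0.16) and without Hx P replicate 1, Hx D replicate 1 or Hx D replicate 2 (0.0534 to 0.0593), and the rise was 6.90-fold without Nx P replicate 3. With the replicate block over the normoxia arrays it passed at an adjusted p of 0.000563.

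The rise of Hmox1 in hypoxia exceeded that in normoxia by 2.06 on the log2 scale, with a 95% interval of -0.24 to 4.36 (adjusted p = 0.235). A difference between the oxygen conditions was therefore not shown for Hmox1. On Hx D replicates 1, 2 and 3 Hmox1 lay 0.52, 0.80 and 0.94 below the brightest probe set of the array. Whether the upper end of the scale limited its hypoxic rise was not tested. Oxygen alone gave 2.36 ± 0.75 more in Hx P than in Nx P cells, which did not pass (adjusted p = 0.139) and whose groups overlapped through Hx P replicate 3. Without that array the change was 3.38 (adjusted p = 0.00352). The same array had the lowest level of its group in all 6 hypoxia response genes. The log2 of their summed signal was 17.2 there, beside 17.8 and 18.2 on the other Hx P arrays and 12.4 to 14.6 on Nx P arrays. Whether this array's state bears on Hmox1 was not tested.

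Blvrb, which encodes biliverdin reductase B, also a flavin reductase, had the largest change of the 10. On the log2 scale its signals were 11.98, 11.78 and 13.07 in Hx D cells, against 6.34, 6.25 and 5.01 in Hx P cells. Under 21% O2 they were 8.03, 9.25 and 6.85 in Nx D cells, against 5.80, 6.45 and 5.69 in Nx P cells. The Hx D arrays shared no value with any other group, while those of Hx P and Nx P cells overlapped. Blvrb rose 85.0-fold in hypoxia (6.41 ± 0.54, adjusted p = 2.89e-06). In normoxia the value was 4.18-fold (2.06 ± 0.54, adjusted p = 0.0888), which passed with the replicate block (adjusted p = 0.00462). The hypoxic change exceeded the normoxic one by 4.35 on the log2 scale (SE 0.77, adjusted p = 0.00241), one of 2 such differences among the 10 genes. Without Nx D replicate 2 that difference was 4.95, and without Nx D replicate 3 it was 3.75, and both passed. Hx P and Nx P cells differed by -0.11 on the log2 scale (95% interval -1.29 to 1.07). Blvra, the other biliverdin reductase gene and not one of the 10, did not separate these groups in hypoxia. Its signals were 6.99, 6.01 and 7.57 in Hx D cells, against 6.59, 6.67 and 6.91 in Hx P cells. The rise of Blvrb RNA does not show that more biliverdin was turned into bilirubin.

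The region upstream of Blvrb is shown because this gene moved most, and it can be read beside those of Tfrc and Ftl1 below. The RefSeq promoter table (build GRCm38.p6) held windows for 6 of the 10 genes, Blvrb, Tfrc, Steap3, Fth1, Ftl1 and Ireb2. The 250 bases before each annotated start were searched on both strands for the antioxidant response element core TGACNNNGC, the hypoxia response element cores ACGTG and GCGTG, and the E-box CACGTG, which contains ACGTG when read on either strand. These stood in 10.2%, 16.6%, 28.2% and 6.02% of all 32851 windows, in that order. Blvrb lies at chr7:27447978-27465981, and the 150 bases before its first annotated start, chr7:27447828-27447977 on the plus strand, held GCGTG at offsets -133 and -42 from the start, in capitals:

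Blvrb: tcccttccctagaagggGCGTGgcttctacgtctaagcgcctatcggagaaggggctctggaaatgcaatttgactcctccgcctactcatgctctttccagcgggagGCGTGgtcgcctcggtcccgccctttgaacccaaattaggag

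Trf, which encodes the iron carrier transferrin, was the only one of the 10 genes to fall. The log2 signals of its probe set were 12.43, 12.33 and 12.45 in Hx D cells, against 14.54, 14.52 and 14.40 in Hx P cells. The normoxic signals were 14.04, 13.85 and 14.11 in Nx D cells, against 14.35, 14.33 and 14.11 in Nx P cells. The 3 Hx D arrays stood apart below the other 9, which lay within a narrow band. Trf fell by 2.08 on the log2 scale in hypoxia, a 4.23-fold decrease (SE 0.15, adjusted p = 9.45e-07), whereas the normoxic change was -0.26 (95% interval -0.59 to 0.08, adjusted p = 0.569). The difference of these changes was -1.82 (SE 0.22, adjusted p = 0.000156).

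Trf is strongly expressed by oligodendrocytes in the brain, so the oligodendrocyte list was read beside it. Of its 5 measured genes, the myelin genes Mbp, Mog, Mag and Mobp had mean signals between 2.57 and 3.44 in every group, near the bottom of the array, while Cnp fell by 3.12 in hypoxia. The summed signal of the list was 6.57 to 7.30 in Hx D cells and 9.54 to 9.85 in Hx P cells on the log2 scale, a sum carried by Cnp. Olig2, a transcription factor of the oligodendrocyte lineage, averaged 4.97 ± 0.49 in Hx D cells and 7.05 ± 0.46 in Hx P cells (SD, n = 3 each). The part of these genes in the fall of Trf was not tested.

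Tfrc, the receptor that brings transferrin-bound iron into the cell, changed opposite to its ligand. Its log2 signals were 13.13, 12.78 and 12.83 in Hx D cells, against 10.44, 9.79 and 9.71 in Hx P cells. In normoxia they were 11.74, 11.31 and 11.33 in Nx D cells, against 10.48, 7.80 and 10.69 in Nx P cells. Doranidazole arrays lay above PBS arrays in both oxygen conditions, and Nx P replicate 2 stood far below its 2 companions. Tfrc rose 7.63-fold in hypoxia (2.93 ± 0.56, adjusted p = 0.00179). The normoxic value was 3.48-fold (1.80 ± 0.56, adjusted p = 0.154), and it passed narrowly with the replicate block (adjusted p = 0.0498). The difference between oxygen conditions was 1.13 (adjusted p = 0.397), but without Nx P replicate 2 it was 2.06 and passed (adjusted p = 0.00211).

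Tfrc lies at chr16:32608896-32632794. The 150 bases before its first annotated start, chr16:32608746-32608895 on the plus strand, held GCGTG on the opposite strand, read here as CACGC in capitals, at offsets -117 and -64:

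Tfrc: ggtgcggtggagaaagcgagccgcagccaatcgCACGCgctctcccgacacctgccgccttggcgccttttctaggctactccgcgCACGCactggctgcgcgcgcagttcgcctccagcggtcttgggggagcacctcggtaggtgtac

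Steap3 encodes the reductase that turns ferric into ferrous iron inside the endosome. On the log2 scale its signals were 8.88, 9.34 and 11.03 in Hx D cells, against 5.23, 6.21 and 7.44 in Hx P cells. Under 21% O2 they were 9.21, 9.81 and 10.02 in Nx D cells, against 8.62, 7.42 and 9.13 in Nx P cells. Hx P cells were the low group, and Hx D cells spanned the values of Nx D cells. Steap3 rose 11.0-fold in hypoxia (3.46 ± 0.62, adjusted p = 0.00109), or 7.03-fold without Hx D replicate 3. In normoxia the value was 2.45-fold (1.29 ± 0.62, adjusted p = 0.418), which passed with the replicate block (adjusted p = 0.0451). The difference of 2.17 between the oxygen conditions did not pass (adjusted p = 0.128), but did in 3 of 20 settings, among them the fit without Hx P replicate 3 (adjusted p = 0.0454).

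Without drug, Steap3 was the one gene of the set with a lower mean in hypoxia by more than 1 on the log2 scale, at 6.29 ± 1.11 in Hx P cells and 8.39 ± 0.88 in Nx P cells (SD, n = 3 each). That change of -2.10 did not pass (adjusted p = 0.114) and the groups overlapped. Without Hx P replicate 3 it was -2.67 (adjusted p = 0.0212). Under doranidazole the oxygen conditions differed by 0.07, with a 95% interval of -1.27 to 1.41.

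Slc11a2, the transporter DMT1, did not pass in any comparison. The log2 signals of its probe set were 7.46, 7.60 and 8.27 in Hx D cells, against 7.33, 7.30 and 7.50 in Hx P cells. The normoxic signals were 7.55, 8.09 and 7.76 in Nx D cells, against 7.78, 7.17 and 7.96 in Nx P cells. The groups overlapped in both oxygen conditions. The change was 0.40 in hypoxia (95% interval -0.16 to 0.95, adjusted p = 0.28) and 0.17 in normoxia (-0.39 to 0.72, adjusted p = 0.906). Only quantile normalization brought the hypoxic change past the threshold (adjusted p = 0.0207).

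**Figure D2:**
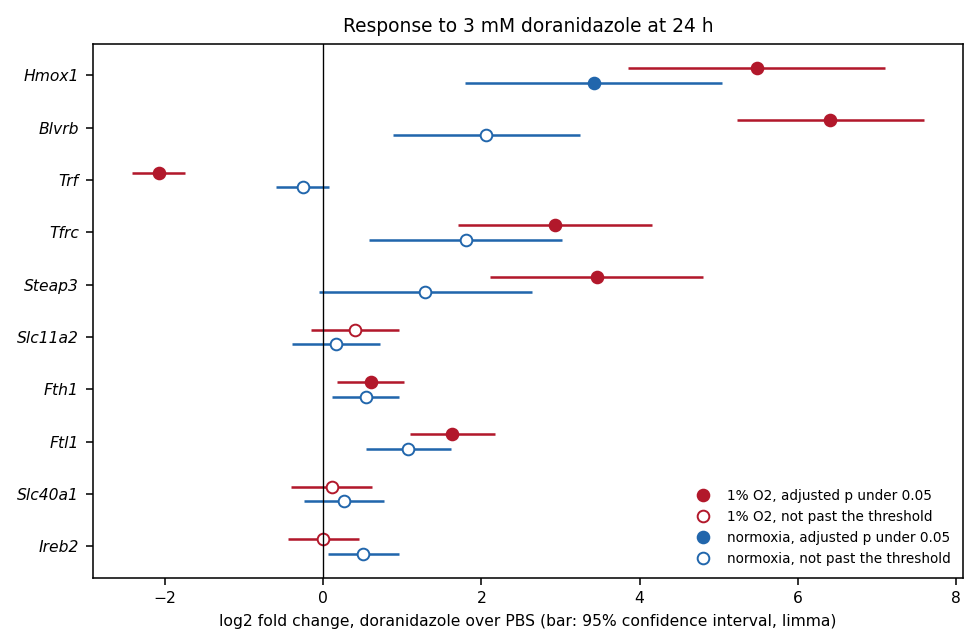
Log2 fold change of the 10 genes with doranidazole over PBS (horizontal axis) in 1% O2 (red, upper of each pair) and in normoxia (blue), with 95% confidence intervals from limma. Filled points passed an adjusted p of 0.05. The hypoxic values run from -2.08 for Trf to 6.41 for Blvrb, and 7 points are filled in hypoxia and 1 in normoxia.

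Both ferritin subunits rose with doranidazole in hypoxia. The light subunit Ftl1 had log2 signals of 17.79, 17.86 and 17.77 in Hx D cells, against 16.42, 16.58 and 15.53 in Hx P cells. In normoxia they were 17.02, 17.23 and 16.81 in Nx D cells, against 15.82, 16.18 and 15.83 in Nx P cells. Doranidazole arrays lay above PBS arrays throughout, and Hx D arrays were the highest and the closest together. Ftl1 rose 3.10-fold in hypoxia (1.63 ± 0.25, adjusted p = 0.000317). In normoxia the value was 2.11-fold (1.08 ± 0.25), just short of the threshold (adjusted p = 0.051) and past it with the replicate block (adjusted p = 0.00729). It also passed with quantile normalization (0.0316), cyclic loess (0.0479), another prior (0.0258) and array weights (0.00744), among other settings. With array medians set equal or the unpaired test it did not pass. The difference between oxygen conditions was 0.55 (95% interval -0.21 to 1.31, adjusted p = 0.342).

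Ftl1 lies at chr7:45457944-45459886, and the 80 bases before its start, chr7:45459887-45459966 on the minus strand, held 1 GCGTG on the opposite strand, read as CACGC in capitals, at offset -47:

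Ftl1: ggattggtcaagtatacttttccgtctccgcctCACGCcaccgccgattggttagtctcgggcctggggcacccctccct

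The antioxidant core TGACNNNGC and the E-box were found in none of the windows of the 6 genes, which says only that these letters are not within those 250 bases. GCGTG was found in 1 or more windows of Blvrb, Tfrc, Steap3, Fth1 and Ftl1, 5 of the 6 genes, and in those of 30.9% of all 27025 genes in the table. For Steap3 and Fth1 it stood only before an alternative start, and not in 3 other windows of Steap3 or 1 other of Fth1. ACGTG was found before the second annotated start of Blvrb (offset -123) and of Tfrc (offset -228), and in windows of 18.5% of all genes. None of the 4 motifs was found in the window of Ireb2. Steap3 has 4 windows and Blvrb, Tfrc and Fth1 have 2 each, beside 32851 windows for all 27025 genes. These 4 genes thus had more windows in which a motif could be met, and the shares by gene are not like for like.

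Fth1 encodes the heavy subunit, which oxidizes ferrous iron for storage. Its log2 signals were 19.02, 18.96 and 19.30 in Hx D cells, against 18.65, 18.69 and 18.14 in Hx P cells. Under 21% O2 they were 19.07, 19.24 and 18.91 in Nx D cells, against 18.63, 18.65 and 18.32 in Nx P cells. Doranidazole arrays lay above PBS arrays in both conditions by a small margin. Fth1 rose 1.51-fold in hypoxia (0.60 ± 0.20, adjusted p = 0.0376), and the value was 1.45-fold in normoxia (0.54 ± 0.20, adjusted p = 0.232). The hypoxic call was lost without Hx P replicate 3 (adjusted p = 0.155) and, by less, without Hx P replicate 1, Hx D replicate 1, Hx D replicate 3 or Nx D replicate 1 (0.0949, the highest of these 4). Fth1 was the brightest probe set of all on Hx D replicates 1 and 2 and lay within 0.03 of the brightest on Hx D replicate 3, and whether the upper end of the scale limited its change was not tested.

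Slc40a1, the iron exporter ferroportin, had low signals. They were 4.45, 3.50 and 3.72 in Hx D cells, against 3.65, 3.78 and 3.92 in Hx P cells, on the log2 scale. The normoxic signals were 3.94, 3.53 and 3.63 in Nx D cells, against 3.58, 3.22 and 3.51 in Nx P cells. The arrays of all 4 groups lay in 1 narrow range, and the group means stood between the 33.2nd and the 39.5th percentile of all probe sets. Its change was 0.11 in hypoxia (95% interval -0.40 to 0.61) and 0.27 in normoxia (-0.24 to 0.77), and neither passed (adjusted p = 0.781 and 0.764). Ferroportin is abundant in macrophages. For the 7 measured microglia and macrophage markers the log2 of the summed signal was 6.86 to 7.31 in Hx D cells and 7.00 to 7.06 in Hx P cells.

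Ireb2, the iron regulatory protein gene, did not pass in any comparison. On the log2 scale its signals were 11.49, 11.81 and 11.58 in Hx D cells, against 11.60, 11.76 and 11.50 in Hx P cells. In normoxia they were 11.92, 11.79 and 11.79 in Nx D cells, against 11.70, 10.87 and 11.41 in Nx P cells. The hypoxia groups overlapped fully, while the Nx D arrays lay just above the Nx P arrays. Its change was 0.00 in hypoxia (95% interval -0.44 to 0.45, adjusted p = 0.992) and 0.50 in normoxia (0.06 to 0.95, adjusted p = 0.307).

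**Figure D3:**
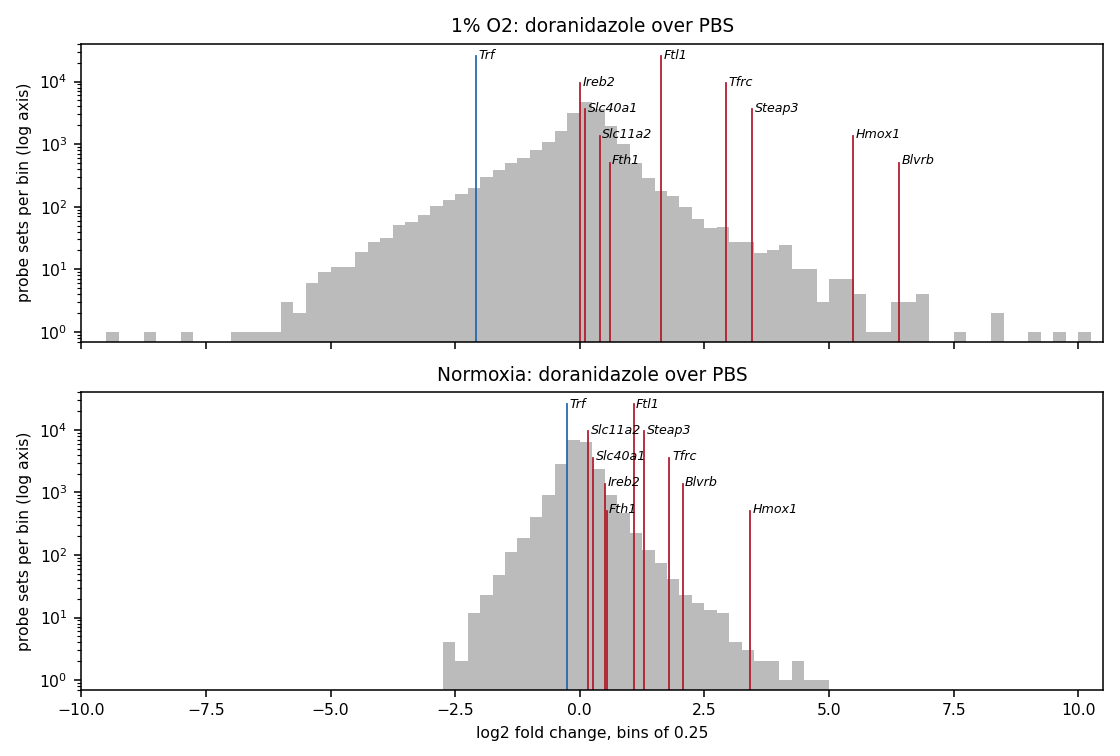
Number of probe sets (vertical log axis) by log2 fold change with doranidazole over PBS (horizontal axis, bins of 0.25) in 1% O2 above and in normoxia below, with lines at the 10 genes (red above 0, blue below). Blvrb and Hmox1 lie far out on the right in 1% O2, at 6.41 and 5.48, and Hmox1 is the farthest of the 10 in normoxia, at 3.42.

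The change with doranidazole differed between oxygen conditions for 1 gene upward (Blvrb) and 1 downward (Trf), where the difference passed upward for 5.02% and downward for 8.5% of all probe sets. For the other 8 genes the difference did not pass with all arrays and the settings used throughout, which does not show that their responses were alike. These comparisons share arrays, so their values are not independent of each other.

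Oxygen without drug moved few of these genes past the test. Between Hx P and Nx P cells 0 of the 10 passed in limma, where 1.46% of all probe sets rose and 0.518% fell. An unadjusted p under the threshold was seen for 2, Hmox1 and Steap3, which ranked 1264 and 980 by p among 22206 probe sets. Slc40a1, the next of the 10, ranked 5805 and was not under it. The number of probe sets under that unadjusted threshold therefore lay between ranks 1264 and 5805. This range is too wide to tell whether 2 of the 10 is more than the share of all probe sets. All Hx P arrays lay above all Nx P arrays for 2 of the 10, Trf and Slc40a1, by gaps of 0.05 and 0.07 on the log2 scale, as they did for 9.29% of all probe sets.

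Under doranidazole, oxygen separated more of them. Between Hx D and Nx D cells Hmox1 (4.43, adjusted p = 0.000774), Blvrb (4.23, adjusted p = 9.87e-05) and Ftl1 (0.78, adjusted p = 0.0304) rose, and Trf fell by 1.60 (adjusted p = 1.05e-05). Over all probe sets 13.5% rose and 16.5% fell. Tfrc had 1.45 more in Hx D cells with no overlap (adjusted p = 0.0702), and passed without Nx P replicate 2 (adjusted p = 0.000527) or Nx P replicate 3 (adjusted p = 0.0493), and in 7 of 22 settings with an adjusted p. At the threshold of the methods Tfrc passed as well (unadjusted p = 0.0236, limma), and Ftl1 at 0.78 did not. All Hx D arrays lay above all Nx D arrays for 4 of the 10 and below them for 1, as for 21.3% and 20.4% of all probe sets. The value of Blvrb was 4.84 without Nx D replicate 2 and 3.63 without Nx D replicate 3, both past the threshold. The call of Ftl1 was lost without any 1 of Nx D replicates 1 and 3 or Hx D replicates 1 and 2 (adjusted p up to 0.104), and it held in 16 of 22 settings.

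Over the 12 arrays Hmox1 varied with Ftl1 (Pearson r = 0.953) and Blvrb (0.933), Fth1 with Ftl1 (0.879), and Blvrb opposite to Trf (-0.952). These values are descriptions over 12 arrays in 4 groups, so they largely restate the group means. The genes most like Hmox1 among 12879 were Ctsl (0.983), Zfyve1 (0.979), Abcc4 (0.977), Sqstm1 (0.972) and Hbp1 (0.971). Those most like Steap3 were Pias2 (0.953), Pitpnm2, Rpusd1, Parp12 and Hspbp1 (0.907), and those most like Tfrc were Tnrc6a (0.962), Ankrd13b, Apaf1, Tpp2 and Tshz1 (0.929).

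The 48 measured genes of a list of other heme and iron genes were read in the same fit. With doranidazole 13 rose and 9 fell in hypoxia, and 2 rose and 0 fell in normoxia. Over all probe sets 12.6% rose and 15.1% fell in hypoxia, and 1.29% rose and 0.293% fell in normoxia. The counts of each list below are to be read beside these shares. With the replicate block 4 rose and 2 fell in normoxia, where 4.17% of all probe sets rose and 3.1% fell. The added genes were Abcb6 (0.92, adjusted p = 0.0462), Slc11a1 (1.02, adjusted p = 0.0174), Steap2 (-0.92, adjusted p = 0.0235) and Slc25a28 (-0.93, adjusted p = 0.0153). The median change over the list was 0.05 in hypoxia and -0.05 in normoxia, close to that of all probe sets.

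Heme synthesis was mixed. Of 8 genes 1 rose and 2 fell in hypoxia, and 0 passed in normoxia in limma, also with the block. Alas1, the first and rate-limiting step in most cells, rose by 1.76 in hypoxia (adjusted p = 0.000657), at 13.6 in Hx D and 11.9 in Hx P cells. Ppox, the penultimate enzyme, fell by 2.39 (adjusted p = 1.82e-05), and Cpox, the step before it, fell by 1.41 (adjusted p = 0.0121), a call lost with quantile normalization (adjusted p = 0.0601) and without Hx P replicate 2 (adjusted p = 0.0519).

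Of 11 genes for heme transport, binding and breakdown, 5 rose and 3 fell in hypoxia and 2 rose in normoxia. Pgrmc1, a heme-binding membrane protein, rose by 3.21 in hypoxia (adjusted p = 1.09e-07) and by 0.79 in normoxia (adjusted p = 0.0495), and the normoxic call held in 2 of the 12 fits that each left out 1 array. Flvcr1, long described as a heme exporter, rose by 3.65 in hypoxia, at 11.5 in Hx D and 7.89 in Hx P cells (adjusted p = 2.75e-05). The transporter Abcg2, which can carry porphyrins, fell by 3.19 in hypoxia (adjusted p = 3.47e-05). Slc48a1, which moves heme out of lysosomes, rose by 2.24 in hypoxia (adjusted p = 0.00104) and by 2.27 in normoxia (adjusted p = 0.0159). Its normoxic call was lost without Nx P replicate 1, Nx D replicate 1 or Nx D replicate 2 (adjusted p up to 0.0799).

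Both measured heme sensors rose in hypoxia. Bach1, a heme-responsive repressor of Hmox1, rose by 3.60, at 12.4 in Hx D and 8.76 in Hx P cells (adjusted p = 2.84e-07). Eif2ak1, the heme-regulated eIF2alpha kinase, rose by 0.88 (adjusted p = 0.0197), and lost its call without Hx P replicate 1, Hx P replicate 2 or Hx D replicate 3 (adjusted p up to 0.084). Bach1 and Hmox1 mRNA thus rose in the same comparison.

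Of 10 genes for iron uptake and reduction, 2 rose and 1 fell in hypoxia. Slc11a1, a divalent metal transporter of phagocytes, rose by 2.81, at 6.15 in Hx D and 3.34 in Hx P cells (adjusted p = 1.08e-05), Slc39a8 rose by 0.68 (adjusted p = 0.046, passing in 9 of 22 settings), and the reductase Steap2 fell by 2.09 (adjusted p = 0.00744). Of the 7 measured microglia and macrophage markers, 1 rose in the same comparison, Itgam by 0.88, and their part in the rise of Slc11a1 was not tested. Of 4 genes for ferritin loading and turnover, Ncoa4, the receptor that delivers ferritin to autophagosomes, fell by 0.68 in hypoxia (adjusted p = 0.0107), at 13.6 in Hx D and 14.2 in Hx P cells. Ferritin mRNA and Ncoa4 mRNA therefore moved in opposite directions under 1% O2.

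Of 7 genes for iron export and hepcidin control, 2 rose and 1 fell in hypoxia. Bmp6, an inducer of hepcidin in liver, rose by 1.03 (adjusted p = 0.0108) and Hamp, hepcidin itself, by 0.91 (adjusted p = 0.041), the second passing in 11 of 22 settings. Cp, the ferroxidase ceruloplasmin, fell by 1.42 (adjusted p = 0.0224), and lost its call without Hx P replicate 3, Hx D replicate 1 or Hx D replicate 2 (adjusted p up to 0.0865). Of 4 mitochondrial transporters, Slc25a37, the iron importer mitoferrin 1, rose by 1.56 (adjusted p = 0.00235) and Abcb8 fell by 1.63 (adjusted p = 0.00359). The cellular iron sensors Aco1 and Fbxl5 did not pass.

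**Figure D4:**
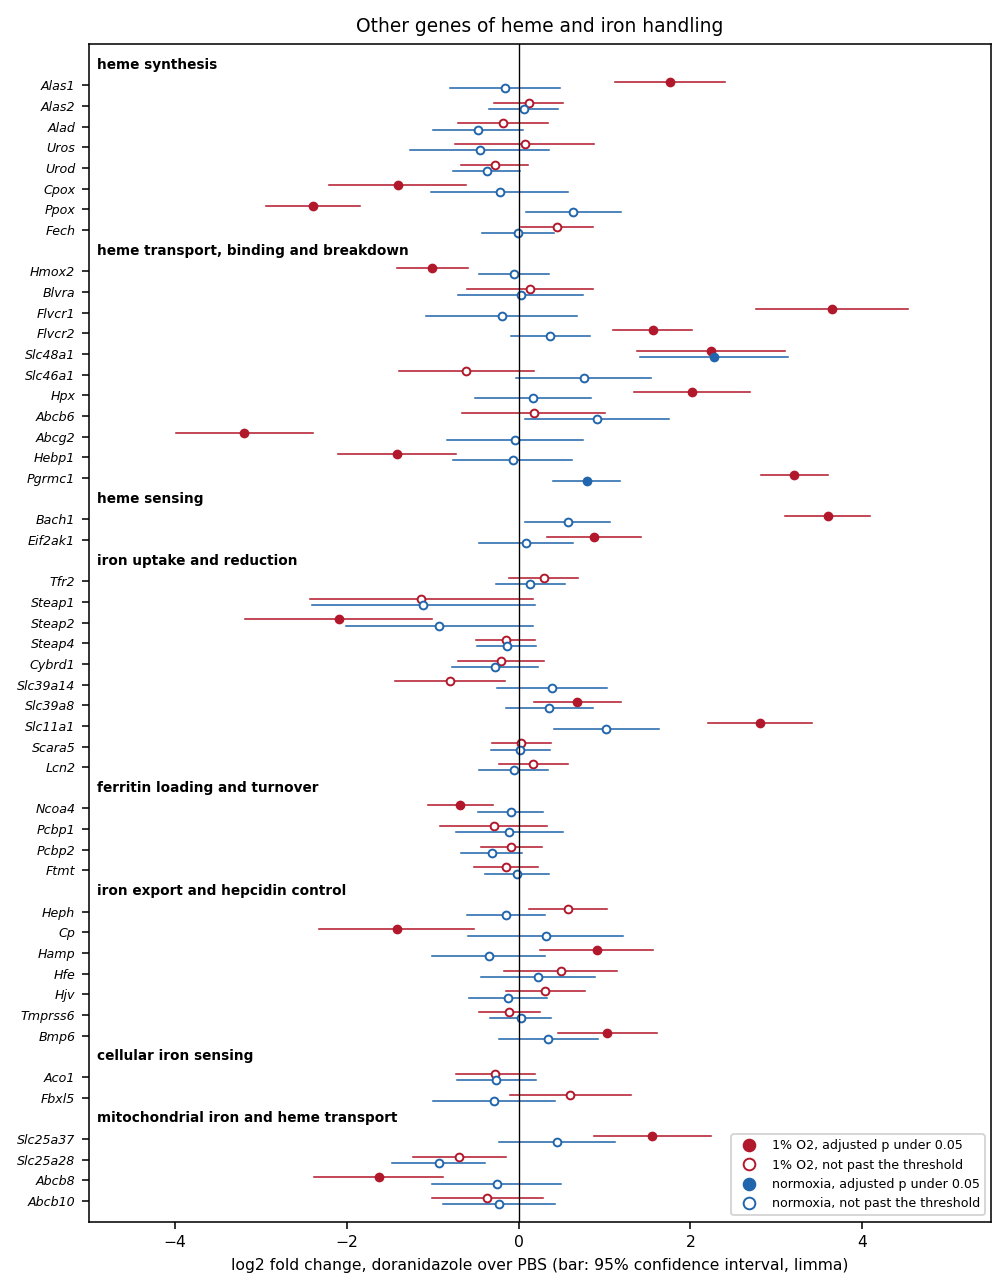
Log2 fold change with doranidazole over PBS (horizontal axis) of the 48 other genes of heme and iron handling, by list, in 1% O2 (red, upper of each pair) and in normoxia (blue), with 95% confidence intervals from limma. Filled points passed an adjusted p of 0.05. In 1% O2 13 genes rose and 9 fell, where 12.6% of all probe sets rose and 15.1% fell. In normoxia 2 rose, where 1.29% of all probe sets did.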

How the data were processed

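RNA of 12 cultures was measured on Clariom S Mouse arrays. The deposited values are log2 signals per probe set, which the authors made from scanner files in Transcriptome Analysis Console. Its summarization and scaling settings were not given in the sources used here. Both deposited tables held equal values. No 2 arrays were identical (66 pairs), and residual precision rests on 3 arrays a group. Probe sets were named through the platform annotation (19572 of 22206 with 1 symbol, 2634 with none). A linear model with 1 mean per group was fitted over all 12 arrays with limma 3.58.1 in R 4.3.3, moderated with eBayes, and p-values (two-sided) were adjusted by Benjamini-Hochberg over all probe sets at 0.05. Intervals are 95%. The fit was checked on simulated data. Promoters came from RefSeq (GRCm38.p6). Plots used matplotlib 3.10.9.

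The methods' definition of changed genes (fold change above 2 or under 0.5 at an unadjusted p) was an alternative, as were 3 normalizations, a filter on the dimmest 30 percent of probe sets, array weights, another prior, replicate blocks and leaving out each array. Same-numbered normoxia arrays deviated together (r = 0.202, 0.329 and 0.326 over probe sets), all above 0.1, so their numbers were taken to pair them. Normoxia arrays of different numbers had r between -0.282 and -0.019, a contrast set in part by taking deviations from group means. This pairing rests on the data, as the labels name no shared culture or day. Hx D and Hx P arrays of the same number did not pair (r = -0.020, -0.024 and -0.047). Between same-numbered Hx P and Nx P arrays r was -0.021, 0.264 and 0.356 for replicates 1, 2 and 3. Between same-numbered Hx D and Nx D arrays it was 0.143, 0.031 and -0.008. The members and lists were chosen with earlier results of these data known. Named genes are all 10 members, of each list the 3 genes with the smallest p among those past the threshold in each comparison with doranidazole, and the 5 genes most like Hmox1, Steap3 and Tfrc among those whose range was at least 1 on the log2 scale. The alternative with another probe set of a gene could not be run because each member has 1.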

Additional observations from a re-analysis of the deposited data

Results flagged for a closer look

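For 12 genes the change with doranidazole differed between hypoxia and normoxia by the test of the difference itself (limma, adjusted p under 0.05). The direction is the hypoxic minus the normoxic change on the log2 scale. Among the 10 members, Blvrb differed by 4.35 (6.41 in hypoxia and 2.06 in normoxia) and Trf by -1.82 (-2.08 in hypoxia and -0.26 in normoxia). Among the 48 other genes of heme and iron handling 7 differed upward and 3 downward. Over all probe sets 5.02% differed upward and 8.5% downward. Alas1 differed by 1.92, with changes of 1.76 in hypoxia and -0.16 in normoxia. Flvcr1 differed by 3.84, with 3.65 in hypoxia and -0.20 in normoxia, and its relative Flvcr2 differed by 1.19, with 1.56 in hypoxia and 0.37 in normoxia. Hpx, the heme-binding plasma protein hemopexin, differed by 1.86, with 2.02 in hypoxia and 0.16 in normoxia. Flvcr2 and Hpx had low signals in Hx P cells, at 3.19, 2.86 and 3.15 for Flvcr2 and 2.51, 2.58 and 2.35 for Hpx. The lower quartiles of arrays outside Hx D were 3.07 to 3.18, so both changes start near the bottom of the array. Pgrmc1 differed by 2.42, with 3.21 in hypoxia and 0.79 in normoxia. Bach1 differed by 3.03, with 3.60 in hypoxia and 0.57 in normoxia. Slc11a1 differed by 1.79, with 2.81 in hypoxia and 1.02 in normoxia. Downward, Ppox differed by -3.03 (-2.39 in hypoxia and 0.64 in normoxia), Abcg2 by -3.15 (-3.19 in hypoxia and -0.04 in normoxia) and Hmox2, the constitutive heme oxygenase, by -0.95 (-1.002 in hypoxia and -0.05 in normoxia). The difference of Hmox2 passed in 8 of 20 settings, and that of Flvcr2 was lost without Nx P replicate 1, Nx D replicate 2 or Hx P replicate 2 (adjusted p up to 0.0526). Groups of 3 arrays are too small for a test of a single far array.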

How the results depend on the processing

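Of the values of the 10 members under the alternatives, 1024 kept their direction and side of the threshold, 31 lost a call and 35 gained one. No called value reversed. The number of members past the threshold in normoxia was 1 and became 2 with quantile normalization, cyclic loess, the dim probe sets left out, 1 probe set per gene or only the 2 groups in the fit, 0 with array medians set equal or an unpaired test without the shared spread, 3 with array weights and 4 at the threshold of the methods. In hypoxia it was 7 and became 3 with the unpaired test. Between Hx P and Nx P cells it was 0 and became 2 with array weights or at the threshold of the methods. With the replicate number as a block it was 2 in normoxia over all arrays, 5 over the normoxia arrays alone, and 2 between Hx P and Nx P cells. Of all 22206 probe sets that block over all arrays gave 440 in normoxia and 564 between Hx P and Nx P cells. In normoxia 379 passed with quantile normalization, 439 with cyclic loess and 283 with array medians set equal. The dim filter gave 383 of 15544 there, and 1 probe set per gene gave 336 of 19505. Totals of other settings follow below. Leaving out 1 array gave 0 to 2 members in normoxia, 6 to 7 in hypoxia, 2 to 3 for the difference of response, 0 to 2 between Hx P and Nx P cells and 3 to 5 between Hx D and Nx D cells. The hypoxic calls of Blvrb, Trf and Tfrc, and the differences of Blvrb and Trf, held in every alternative run. The unpaired test ended the hypoxic calls of Hmox1 (adjusted p = 0.0613), Steap3 (0.111), Ftl1 (0.0698) and Fth1 (0.164), and that of Fth1 was also lost with array medians set equal (0.116), array weights (0.106) and only 2 groups (0.104). The normoxic call of Hmox1 was lost with array medians set equal (0.0503), another prior (0.0953) and the unpaired test (0.219). Wherever 2 members passed in normoxia under the normalizations, the dim filter, 1 probe set per gene or only 2 groups, the second was Ftl1. With another prior Ftl1 was the only member to pass (0.0258). Between Hx D and Nx D cells Tfrc passed with quantile normalization (0.0494), cyclic loess (0.0343), the replicate block over all arrays (0.039), only 2 groups (0.00139) and the unpaired test (0.0252), and the call of Ftl1 was lost with quantile normalization (0.0567) and array medians set equal (0.0767). The difference of response of Steap3 passed with the replicate block over all arrays (0.0229) and array weights (0.0267).

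Over all probe sets, 352 passed in normoxia, against 1386 with array weights, 1614 with the normoxia block, 1010 with only 2 groups, 12 with the unpaired test, 853 at the threshold of the methods and 38 to 569 without 1 array. In hypoxia 6154 passed, against 1671 with the unpaired test. Between Hx P and Nx P cells 439 passed, against 2273 with array weights, 115 with only 2 groups, 0 unpaired, 1051 at the methods' threshold and 151 to 1432 without 1 array, the highest without Hx P replicate 3, and between Hx D and Nx D cells 6656 passed, against 2352 unpaired and 4247 at the methods' threshold. Setting array medians equal shifted the median change of all probe sets by -0.12 in hypoxia, -0.11 in the difference and -0.13 between Hx D and Nx D cells, and the share of calls that were higher was then 35.1%, 29% and 33.4%, against 45.5%, 37.1% and 45.1%. With quantile normalization it was 51.2%, 49% and 51.6%. The causes were not tested. With 3 arrays a group, small changes such as that of Fth1 are at the limit of what can be called.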
